A study of Mus musculus with 9 samples.

Results

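Fc gamma receptors bind the constant part of IgG and are read out here with the signaling chains and the kinase that act below them. The 8 genes are Fcgr1, Fcgr3, Fcgr4, Fcgr2b, Fcer1g, Tyrobp, Syk and Sirpa, chosen by name from the 16755 genes of the authors' deposited table, and all 8 were found there. RNA-seq was performed on liver of male mice, C57BL/6 by the labels and C57BL/6J in the methods of the study, in 3 groups of 3 samples each. TAL, the liver next to tumors, came from Scd2f/f mice and from Scd2f/f;Col1a1-Cre mice, called Scd2f/f;CC, after DEN and WAD. The labels call this tissue liver, and by the study it held microscopic tumors but no evident visible ones. DEN, a hepatic carcinogen, was injected at 2 weeks of age (10 mg/kg). WAD, a Western diet combined with alcohol, began when the mice were 6 weeks old. The labels give 4 months of the diet, which is shorter than in the methods of the study. Control liver came from Scd2f/f mice whose treatment label reads untreated, although their protocol label repeats the text on DEN and the diet. Every mouse carries floxed Scd2, in which loxP sites flank the third exon, and the age of the control mice was given only as part of a range for all animals of the study. Cre under the Col1a1 promoter acts in cells that express Col1a1, such as activated hepatic stellate cells and fibroblasts. No group carries Cre without the floxed gene, and there is no untreated Scd2f/f;CC liver.

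The authors' deposited table gives 1 mean of normalized counts per group and gene, and no value of a single mouse. Depth per sample and the spread between mice are therefore unknown, no test was possible, and each ratio below is a ratio of 2 group means. A gene is called at least 2-fold higher or lower by this ratio alone. As background serve the 11784 genes whose mean over the 3 groups reached 1, a filter that all 8 genes passed. A gene can pass it through Scd2f/f TAL alone. This favors high ratios of Scd2f/f TAL over control liver and low ratios of Scd2f/f;CC TAL over Scd2f/f TAL. Scd2, the targeted gene, had means of 2.46 (control liver), 6.47 (Scd2f/f TAL) and 1.87 (Scd2f/f;CC TAL). Alb, the plasma protein made by hepatocytes, was at 21300, 20900 and 22700 in the same order. The 75th percentile of all means lay between 15.4 and 15.5 in every group.

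Fcgr1, Fcgr3 and Fcgr4 encode the activating receptors, which bind IgG outside the cell but signal through the small chain encoded by Fcer1g. That chain holds an ITAM, a stretch with a pair of tyrosines which Src family kinases phosphorylate and to which the kinase Syk then binds. Tyrobp, also called DAP12, is a second ITAM chain and serves other myeloid receptors. Fcgr2b encodes the inhibitory receptor, whose ITIM, a stretch around 1 tyrosine, recruits phosphatases. It is known for its expression on liver sinusoidal endothelial cells and B cells, while the activating receptors are best known on macrophages, monocytes and neutrophils. Sirpa encodes the ITIM receptor by which macrophages read CD47, a signal that restrains phagocytosis.

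The coding stretches of these motifs are shown because the chains and inhibitory receptors are known to signal through them. They were read from the GENCODE M21 principal transcripts on GRCm38, and capitals mark the tyrosine codons.
Fcer1g ITAM: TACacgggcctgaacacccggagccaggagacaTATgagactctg
Tyrobp ITAM: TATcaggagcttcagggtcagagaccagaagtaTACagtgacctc
Fcgr2b ITIM: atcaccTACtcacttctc
Sirpa first ITIM: atcacaTACgcagacctg
Sirpa second ITIM: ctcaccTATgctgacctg
The ITAM of Fcer1g spans codons 65 to 79 of 86 and crosses from exon 4 into exon 5, the last, at chr1:171229889-171230072 on the minus strand. That of Tyrobp spans codons 92 to 106 of 114, also across exons 4 and 5, at chr7:30415670-30417382 on the plus strand. The Fcgr2b ITIM is in exon 8 of 8 at chr1:170961071-170961088 on the minus strand, and the Sirpa stretches are in exon 8 of 8 at chr2:129629954-129629971 and chr2:129630077-129630094 on the plus strand. The ITAM was searched as a tyrosine, any 2 residues and a leucine or isoleucine, repeated after 6 to 12 residues. Of the 8 genes, only Fcer1g and Tyrobp hold it, and none of the 3 activating receptors does. It was found in 6.49% of 21507 protein-coding genes. The ITIM was searched as a serine or aliphatic residue, any residue, a tyrosine, any 2 residues and an aliphatic residue. This pattern matched 48.9% of these genes and does not separate activating from inhibitory members: it occurs 3 times in Sirpa and in Fcgr1, 1 time each in Fcgr2b, Fcgr4, Fcer1g and Tyrobp, and not in Fcgr3 or Syk. The stretches shown for Fcgr2b and Sirpa were chosen because these receptors are known to carry ITIMs. For Sirpa, first and second give the order of matches to this pattern, at codons 434 to 439 and 475 to 480 of 509. The third match, at codons 499 to 504, is not shown.

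The 3 activating receptors were higher in Scd2f/f TAL than in control liver by similar factors. Fcgr1, the high-affinity receptor on chromosome 3 (96282909 to 96293969, minus strand), had means of 0.838 (control liver), 3.73 (Scd2f/f TAL) and 2.59 (Scd2f/f;CC TAL). Fcgr3, a low-affinity receptor, had means of 2.06, 7.75 and 5.52. Fcgr4, which binds some IgG subclasses with intermediate affinity, had means of 1.1, 4.99 and 3.34. In each case control liver was lowest, Scd2f/f TAL highest and Scd2f/f;CC TAL between them. Over control liver, the ratios in Scd2f/f TAL were 4.45 for Fcgr1, 3.76 for Fcgr3 and 4.54 for Fcgr4, log2 ratios of 2.15, 1.91 and 2.18. In Scd2f/f;CC TAL the same genes were 30.6%, 28.8% and 33.1% lower than in Scd2f/f TAL, and the log2 ratios, from -0.58 to -0.49, differed by less than 0.1 from gene to gene.

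Fcgr2b, the inhibitory receptor, did not share this pattern. Its means were 19.1 (control liver), 21.5 (Scd2f/f TAL) and 21.1 (Scd2f/f;CC TAL). The log2 ratio was 0.17 for Scd2f/f TAL over control liver and -0.03 for Scd2f/f;CC TAL over Scd2f/f TAL. Of all genes, 63.4% had a lower ratio than Fcgr2b in the first comparison and 43.4% in the second, so it lay in the bulk of both distributions. Relative to Fcgr2b, Fcgr1 was 3.95-fold, Fcgr3 3.34-fold and Fcgr4 4.03-fold higher in Scd2f/f TAL than in control liver. These relative values were 2.80, 2.43 and 2.75 for Scd2f/f;CC TAL over control liver.

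Both ITAM chains were also highest in Scd2f/f TAL. Fcer1g had means of 1.59 (control liver), 7.33 (Scd2f/f TAL) and 4.7 (Scd2f/f;CC TAL). The first comparison gave a ratio of 4.61, above that of 99.1% of all genes, and Fcer1g was 1.56-fold lower in Scd2f/f;CC TAL than in Scd2f/f TAL. Tyrobp, on chromosome 7 (30413760 to 30417585, plus strand), had means of 2.72, 8.66 and 6.56. With a ratio of 3.18 it showed the smallest difference from control liver among the 7 genes other than Fcgr2b, and with 24.2% also the smallest decrement in Scd2f/f;CC TAL. Both chains kept the order control liver, Scd2f/f;CC TAL, Scd2f/f TAL.

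Syk, the kinase that docks on phosphorylated ITAMs, lies on chromosome 13 (52583173 to 52648792, plus strand). Its means were 1.95, 8.53 and 5.74, a 4.37-fold higher level in Scd2f/f TAL than in control liver and a 32.7% lower level in Scd2f/f;CC TAL than in Scd2f/f TAL. Sirpa, on chromosome 2 (129592835 to 129632228, plus strand), had means of 6.09, 33.5 and 19.1. Sirpa showed the largest difference of the 8 genes in both comparisons, 5.50-fold higher in Scd2f/f TAL and 1.75-fold lower in Scd2f/f;CC TAL. An inhibitory receptor stood at each end of the range, Fcgr2b with the smallest difference and Sirpa with the largest.

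**Figure D1:**
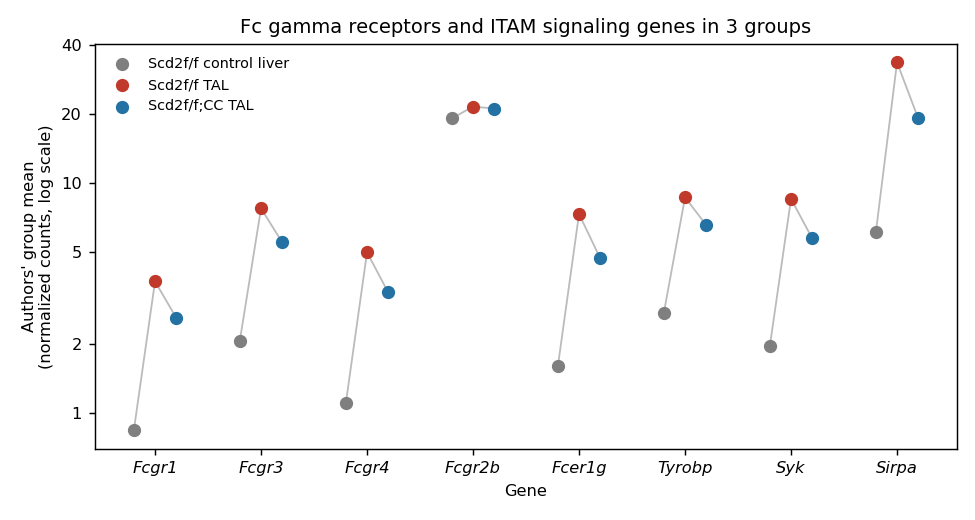
Authors' group means of the 8 genes in normalized counts on a log axis, with 1 point per gene and group, gray for Scd2f/f control liver, red for Scd2f/f TAL and blue for Scd2f/f;CC TAL. In 7 genes the gray point is lowest and the red point highest, while the Fcgr2b points lie between 19.1 and 21.5; no spread between mice is shown because only group means were analysed.

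In Scd2f/f TAL over control liver, 7 of the 8 genes were at least 2-fold higher, where 6.40% of all 11784 genes were. The median log2 ratio of the 8 genes was 2.14 and that of all genes 0.03. In Scd2f/f;CC TAL over Scd2f/f TAL, 0 of the 8 were at least 2-fold lower, against 1.54% of all genes, and all 8 had a ratio below 1, against 48.4% of all genes. The median log2 ratio was -0.55, beside 0.01 for all genes. Fcer1g and Sirpa were at least 1.5-fold lower, as were 4.87% of all genes. Compared with control liver, the same 7 genes stayed at least 2-fold higher in Scd2f/f;CC TAL, with ratios from 2.41 for Tyrobp to 3.14 for Sirpa, where 4.51% of all genes were. Without Fcgr2b, Scd2f/f;CC TAL differed from control liver by 47.5% (Sirpa) to 64.6% (Tyrobp) of the difference between Scd2f/f TAL and control liver, with a median of 57.6%. The level in untreated Scd2f/f;CC liver is unknown. The 3 comparisons share group means, so they are not independent of each other.

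**Figure D2:**
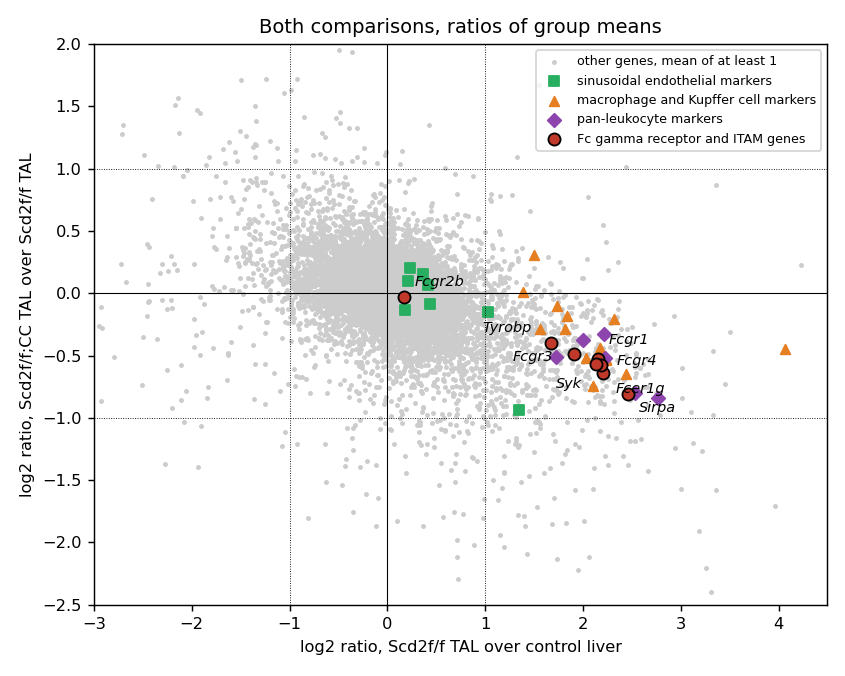
Log2 ratio of Scd2f/f TAL over control liver (horizontal) against that of Scd2f/f;CC TAL over Scd2f/f TAL (vertical) for genes with a mean of at least 1, with dotted lines at 2-fold and 46 of 11784 genes outside the axes. Fc gamma receptor and ITAM genes (red) lie among pan-leukocyte (purple) and macrophage markers (orange), except Fcgr2b, at 0.17 and -0.03. Fcgr2b lies in the bulk of all genes, near most sinusoidal endothelial markers (green) but not Lyve1 and Cdh5, which lie past 2-fold on the horizontal axis. Scd2f/f TAL enters both axes.

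Levels of different genes were compared per kb of merged exons in GENCODE M21, in normalized counts per kb. In control liver, Tyrobp was at 4.08 and Fcgr2b at 3.30, followed by Fcer1g at 1.82, Sirpa at 1.24, Fcgr3 at 1.19, Fcgr4 at 0.876, Fcgr1 at 0.324 and Syk at 0.208. Fcgr2b was thus the second of 8. In Scd2f/f TAL it was the sixth, at 3.71, below Tyrobp at 13.0, Fcer1g at 8.39, Sirpa at 6.82, Fcgr3 at 4.46 and Fcgr4 at 3.97, and above Fcgr1 at 1.44 and Syk at 0.911. In Scd2f/f;CC TAL it was the fourth, at 3.64, behind Tyrobp at 9.84, Fcer1g at 5.38 and Sirpa at 3.89, and ahead of Fcgr3 at 3.18, Fcgr4 at 2.66, Fcgr1 at 1 and Syk at 0.613. Neighbors in these orders could not be tested. The place of Fcgr2b depended on the length used: per kb of the principal transcript, an alternative chosen after seeing the data, it was the first of 8 in control liver at 5.39, the fourth in Scd2f/f TAL at 6.07 and the third in Scd2f/f;CC TAL at 5.95. Summed per kb, the 3 activating receptors were at 0.723 times the level of Fcgr2b in control liver, 2.66 times in Scd2f/f TAL and 1.88 times in Scd2f/f;CC TAL. With the length of the principal transcript, these values were 0.506, 1.84 and 1.30. In bulk tissue, more cells of a type and more RNA per cell cannot be told apart.

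Other genes of the pathway came from 10 lists by role, which hold 116 genes, 97 of them in the table and 61 with a mean of at least 1. Of the 61, 26 were at least 2-fold higher and 0 at least 2-fold lower in Scd2f/f TAL than in control liver, with a median log2 ratio of 0.73. Of all genes, 6.40% were at least 2-fold higher and 2.89% at least 2-fold lower. In Scd2f/f;CC TAL over Scd2f/f TAL, 51 had a ratio below 1 (48.4% of all genes), 2 were at least 2-fold lower, Cd72 and Thbs1 (1.54% of all genes), and 0 at least 2-fold higher (0.645% of all genes), with a median of -0.23. Cd72 passed the filter only through Scd2f/f TAL, at 2.88, beside 0.998 in control liver and 0.878 in Scd2f/f;CC TAL. Against control liver, 22 were at least 2-fold higher in Scd2f/f;CC TAL (4.51% of all genes).

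Among receptors that pair with Tyrobp or Fcer1g, all 4 with a mean of at least 1, of 13 in the table, were at least 2-fold higher in Scd2f/f TAL (6.40% of all genes): Clec4n (Dectin-2, a fungal lectin) with a log2 ratio of 2.52, Cd300lb with 2.31, Cd300ld with 2.00 and Klrk1 (NKG2D) with 1.74. Their log2 ratios in Scd2f/f;CC TAL over Scd2f/f TAL ran from -0.83 for Clec4n to -0.13 for Klrk1. Trem2, the lipid-sensing receptor that signals through Tyrobp, was below the filter with means of 0.253, 1.8 and 0.459. Its log2 ratio was 2.83 for Scd2f/f TAL over control liver and -1.97 for Scd2f/f;CC TAL over Scd2f/f TAL, beside 1.67 and -0.40 for Tyrobp. Among lectins with a single ITAM-like tyrosine, Clec7a (Dectin-1) had means of 2.54, 21.9 and 11.3 and log2 ratios of 3.11 and -0.95, while Clec1b and Clec9a were under 2-fold in both comparisons. The other ITAM or YINM chains, those of the T and B cell receptors, had 6 genes in the table and none with a mean of at least 1. Their summed level was 1.22, 3.34 and 2.42.

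Of 6 Src family kinases with a mean of at least 1, 2 were at least 2-fold higher in Scd2f/f TAL (6.40% of all genes), among them Fgr, known from myeloid cells, with a log2 ratio of 2.13. The other 4 were under 2-fold, among them Fyn with 0.78, Lyn with 0.27 and Yes1 with 0.05. Lyn had means of 20.4, 24.6 and 20.8. Of 22 Syk effectors, 8 were at least 2-fold higher (6.40% of all genes) and 0 lower (2.89%): Rac2 (2.50), Pik3cd (2.17), Plcg2 (2.13), Lcp2 (2.06), Vav1 (1.90), Pik3cg (1.37), Prkcd (1.34) and Gab2 (1.02), each as a log2 ratio. Plcg1, Vav2 and Grb2, the widely expressed counterparts and adaptor, had log2 ratios of 0.25, 0.05 and 0.11. Zap70, the relative of Syk in T cells, had means of 3.9, 2.57 and 3.7, lower in Scd2f/f TAL than in the other groups, with log2 ratios of -0.60 and 0.53. In Scd2f/f;CC TAL over Scd2f/f TAL, 20 of the 22 effectors had a ratio below 1 (48.4% of all genes). None differed 2-fold (1.54% of all genes lower and 0.645% higher), the lowest being Blnk with a log2 ratio of -0.99.

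Of 10 ITIM receptors with a mean of at least 1, 8 were at least 2-fold higher in Scd2f/f TAL (6.40% of all genes), led by Clec12a with a log2 ratio of 2.67, Pilra with 2.10 and Siglece with 2.01. Pecam1 and Ceacam1, which endothelial cells and hepatocytes express, had log2 ratios of 0.45 and 0.54. Cd72, a receptor of B cells and macrophages, had means of 0.998, 2.88 and 0.878, so that Scd2f/f;CC TAL was below control liver. Its log2 ratio of -1.71 in Scd2f/f;CC TAL over Scd2f/f TAL was the lowest of the list, but Cd72 passed the filter only through Scd2f/f TAL. Among phosphatases and other brakes, the hematopoietic genes Ptpn6 (SHP-1), Inpp5d (SHIP1) and Dok2 were higher in Scd2f/f TAL with log2 ratios of 1.47, 1.76 and 1.80. Ptpn11 (SHP-2) and Inppl1 (SHIP2), their widely expressed relatives, had log2 ratios of 0.11 and 0.73.

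Cd47, the ligand of SIRPα, had means of 63, 59.8 and 63.8, while Sirpa itself was 5.50-fold higher in Scd2f/f TAL. Thbs1, a secreted CD47-binding protein that is listed with it, had means of 3.63, 7.19 and 2.29, a log2 ratio of -1.65 in Scd2f/f;CC TAL over Scd2f/f TAL. For IgG, the mRNA of heavy chain constant regions was low and below the filter, with Ighg2b at 0.903, 1.01 and 1.05. Ighg2c was at 0.627, 0.974 and 0.698. Ighg1, the lowest, was at 0.138, 0.136 and 0.388, a ratio of 2.85 in Scd2f/f;CC TAL over Scd2f/f TAL. None of the 4 immunoglobulin genes with a mean of at least 1 (Igha, Igkc, Ighm and Jchain) was 2-fold apart in either comparison, and their median log2 ratio was 0.16 in Scd2f/f TAL over control liver. These are transcript levels in liver and say nothing of IgG in blood. Of other proteins that bind antibody Fc parts, the 3 with a mean of at least 1 showed no 2-fold difference: Fcgrt, the neonatal receptor that recycles IgG, had means of 53.3, 58 and 63.8, Pigr, which carries IgA into bile, 638, 903 and 1040, and Trim21, the cytosolic receptor, 3.06, 3.83 and 3.52. Fcmr, a receptor of IgM, was below the filter at 0.178, 0.254 and 0.376.

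**Figure D3:**
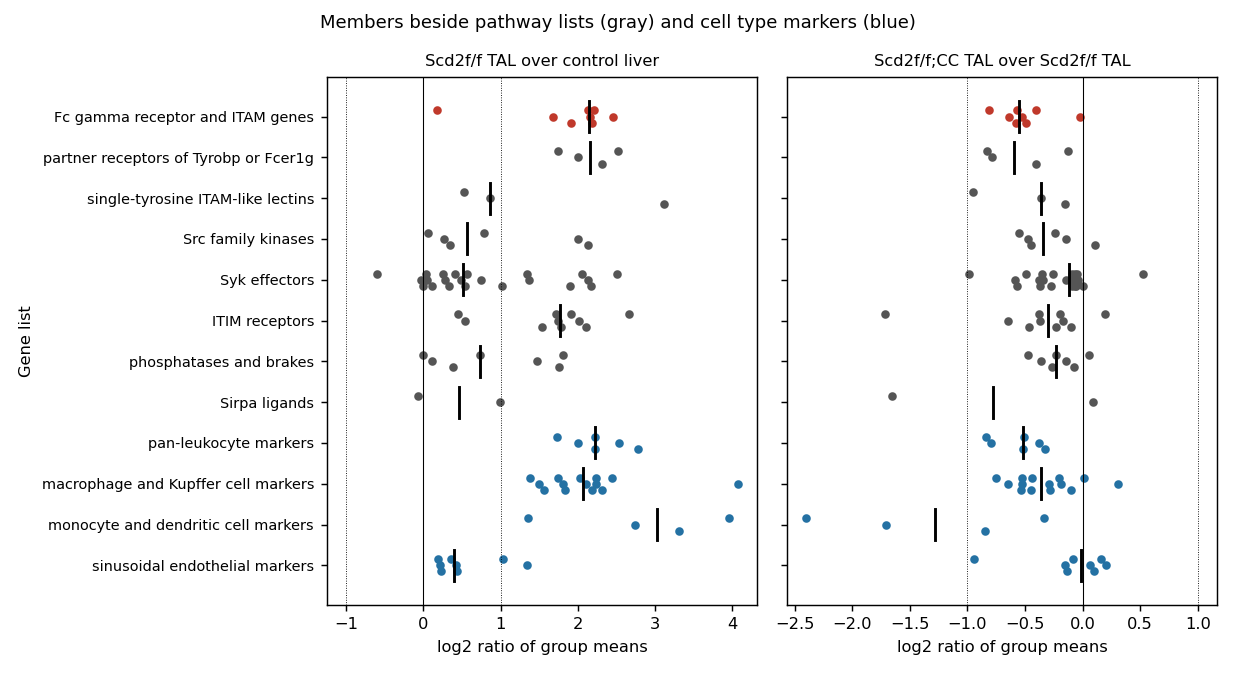
Log2 ratio of group means for each gene with a mean of at least 1 (points) and the median of its list (bars), for the members (red), 7 pathway lists (gray) and 4 marker lists (blue), in Scd2f/f TAL over control liver at left and Scd2f/f;CC TAL over Scd2f/f TAL at right. The member median of 2.14 at left lies beside that of the pan-leukocyte list, 2.22, and the median of sinusoidal endothelial markers is 0.39.

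Markers of leukocytes and macrophages were higher in the same groups as the 7 genes. All 6 pan-leukocyte markers were at least 2-fold higher in Scd2f/f TAL (6.40% of all genes), with a median log2 ratio of 2.22. Their summed level was 13.5 (control liver), 62.4 (Scd2f/f TAL) and 44.4 (Scd2f/f;CC TAL). Measured against this median, Fcer1g, Fcgr1, Fcgr4 and Syk differed by -0.09 to -0.02 in log2 ratio, Fcgr3 differed by -0.31, Tyrobp by -0.55 and Sirpa by 0.24. Against the same list in Scd2f/f;CC TAL over Scd2f/f TAL, where its median was -0.51, Sirpa differed by -0.30 and the other 6 by -0.13 to 0.11, while Fcgr2b differed by 0.49. All 14 macrophage and Kupffer cell markers were at least 2-fold higher in Scd2f/f TAL (6.40% of all genes), and their sum was 168, 681 and 533. In Scd2f/f;CC TAL over Scd2f/f TAL, 12 of these 14 had a ratio below 1 (48.4% of all genes), with a median log2 ratio of -0.36, and the log2 ratios of the 7 genes ran from -0.81 to -0.40. The exceptions were the resident Kupffer cell markers Clec4f (0.01) and Timd4 (0.30), while Marco (-0.45), Vsig4 (-0.29) and Cd5l (-0.20) were below 0. Monocyte and dendritic cell markers spread widely in this comparison. The 4 with a mean of at least 1 were Cx3cr1 at -2.40, Itgax at -1.71, Ccr2 at -0.85 and Itgam at -0.34. Cx3cr1, Itgax and Itgam reached this mean only with Scd2f/f TAL counted in, which favors low ratios here. Below the filter, Flt3 was at -0.99, Xcr1 at -0.78, Ly6c2 at -0.09 and Chil3 at -0.05. The list summed to 2.37, 13.7 and 6.5. The part of these markers in the member values was not tested.

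Fcgr2b, known from sinusoidal endothelial cells, had log2 ratios of 0.17 and -0.03. The 8 markers of these cells summed to 135 (control liver), 179 (Scd2f/f TAL) and 183 (Scd2f/f;CC TAL), with median log2 ratios of 0.39 and -0.01. Stab2 was at 36.9, 42.8 and 45.9 and Clec4g at 13.9, 18.8 and 17.7, and only Lyve1 and Cdh5 were 2-fold higher in Scd2f/f TAL (6.40% of all genes). Among B cell markers, Ms4a1 was low, at 0.204, 0.46 and 0.474. Neutrophil markers, of which 4 were in the table, summed to 1.18, 4.74 and 3.68, and T and NK cell markers to 1.64, 4.98 and 2.97. The 6 B and plasma cell markers in the table summed to 5.16, 5.71 and 4.91. Stellate cell and fibroblast markers summed to 107, 146 and 101, cholangiocyte markers to 58.7, 53.1 and 19.1, and hepatocyte markers to 31419, 29669 and 33042. Reln, at 73, 89.2 and 71.6, made up most of the stellate sum, and Spp1, at 52.3, 45.1 and 14.8, most of the cholangiocyte sum. Col1a1 was at 4.69, 19.6 and 4.51. Of the 6 stellate markers past the filter, 3 were at least 2-fold lower in Scd2f/f;CC TAL than in Scd2f/f TAL (1.54% of all genes). Their median log2 ratio was -0.90. The part of these cells in the member values was not tested.

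Apart from the members, the protein-coding genes nearest to their median pair of log2 ratios, 2.14 and -0.55, were ranked by Euclidean distance over the 2 ratios, which rest on 3 group means. The 10 nearest of 11000 were Ccdc88b, Plcg2, Clec4a1, Pik3cd, Ly86, Fam129a, Ciita, Gbp6, Fgr and Fmnl1, at distances from 0.02 to 0.09. Plcg2, Pik3cd and Fgr among them belong to the pathway lists. Ccdc88b, the nearest, had means of 0.471, 2.06 and 1.42. A distance of at most 0.25 held for 66 genes.

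Fcgr2b, Fcgr4, Fcgr3 and Fcer1g lie within 276 kb of chromosome 1, at 170958617 to 171234365 in coordinates that match GRCm38. Fcgr2b occupies 170958617 to 170976547 on the minus strand, Fcgr4 171018920 to 171029761 on the plus strand, Fcgr3 171051174 to 171064935 on the minus strand and Fcer1g 171229572 to 171234365 on the minus strand. Including 200 kb on each side, the window held 18 other genes with a mean of at least 1. Their median log2 ratio was -0.13 in Scd2f/f TAL over control liver and 0.05 in Scd2f/f;CC TAL over Scd2f/f TAL. Of the 18, 1 was at least 2-fold higher in Scd2f/f TAL than in control liver (6.40% of all genes), Arhgap30, which encodes a GTPase-activating protein, with means of 1.85, 6.12 and 4. At least 2-fold lower were 2 of them (2.89% of all genes), Pcp4l1 with means of 3.78, 0.834 and 0.979 and Tstd1 with 4.94, 2.45 and 2.08. Sdhc, which lies between Fcgr3 and Fcer1g and encodes a subunit of succinate dehydrogenase, was at 48.5, 45.9 and 46.1.

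**Figure D4:**
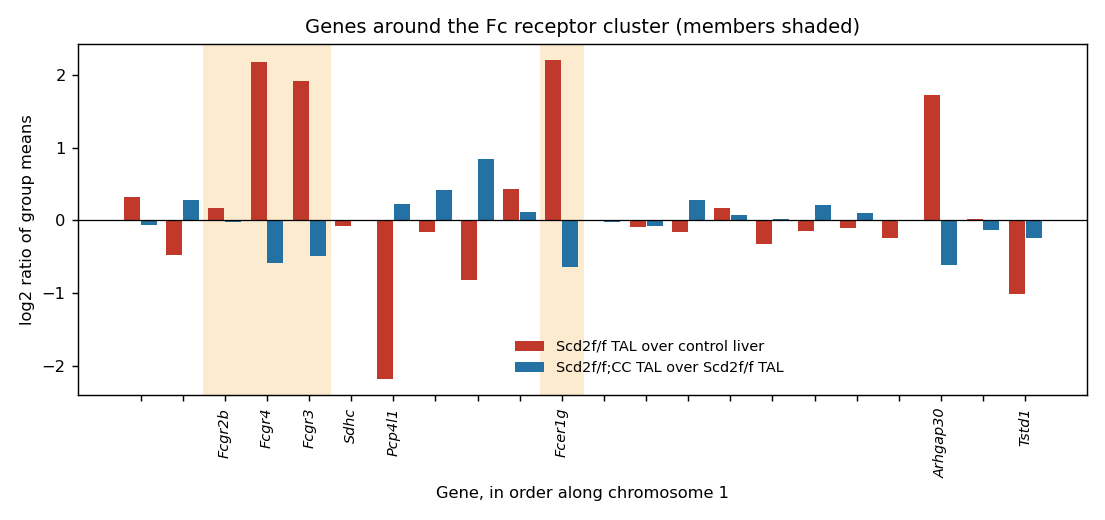
Log2 ratio of group means for the 22 genes past the filter in and around the Fc receptor cluster, in order along chromosome 1, red for Scd2f/f TAL over control liver and blue for Scd2f/f;CC TAL over Scd2f/f TAL, with the 4 members shaded and only genes named in the text labelled. Fcgr4, Fcgr3, Fcer1g and Arhgap30 have red bars of 1.73 or more, while that of Fcgr2b is 0.17.

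The starts of the receptor genes are shown because the ratios of Fcgr2b and the activating receptors lay far apart. RefSeq windows on GRCm38.p6, from 250 bases before to 50 after the start, were at hand for 6 of the 8 genes (not Tyrobp and Sirpa), and those of Fcgr3 and Fcgr2b lie inside the GENCODE genes. They were searched on both strands for GAGGAA, the purine-rich core bound by PU.1, a transcription factor of myeloid and B cells, and capitals mark a match, written TTCCTC where it is on the other strand.
Fcgr1, chr3:96293920-96294219, minus strand: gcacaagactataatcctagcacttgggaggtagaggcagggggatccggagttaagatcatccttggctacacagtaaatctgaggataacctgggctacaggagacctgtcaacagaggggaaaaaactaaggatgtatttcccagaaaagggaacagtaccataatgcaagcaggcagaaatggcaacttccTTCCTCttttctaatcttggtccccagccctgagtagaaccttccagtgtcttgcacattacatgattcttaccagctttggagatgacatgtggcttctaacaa
Fcgr3, chr1:171059354-171059653, minus strand: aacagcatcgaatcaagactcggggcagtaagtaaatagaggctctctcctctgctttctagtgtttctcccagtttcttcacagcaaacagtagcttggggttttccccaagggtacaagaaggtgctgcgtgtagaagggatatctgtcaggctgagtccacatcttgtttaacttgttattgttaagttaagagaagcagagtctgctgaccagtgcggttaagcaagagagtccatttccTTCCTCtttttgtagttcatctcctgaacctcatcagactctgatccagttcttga
Fcgr4, chr1:171018676-171018975, plus strand: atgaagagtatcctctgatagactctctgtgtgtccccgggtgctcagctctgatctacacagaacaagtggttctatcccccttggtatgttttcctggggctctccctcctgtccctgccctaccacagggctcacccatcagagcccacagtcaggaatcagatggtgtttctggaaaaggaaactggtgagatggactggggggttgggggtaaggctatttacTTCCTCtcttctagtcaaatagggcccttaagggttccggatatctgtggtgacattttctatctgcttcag
Fcgr2b, chr1:170976022-170976321, minus strand: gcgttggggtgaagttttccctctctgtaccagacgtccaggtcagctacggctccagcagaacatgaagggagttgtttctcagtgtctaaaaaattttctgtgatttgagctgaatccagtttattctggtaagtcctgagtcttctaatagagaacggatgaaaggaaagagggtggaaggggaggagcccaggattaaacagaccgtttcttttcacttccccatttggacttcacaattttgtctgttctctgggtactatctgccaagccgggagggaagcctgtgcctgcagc
The match begins 55 bases before the start in Fcgr1, 6 in Fcgr3 and 22 in Fcgr4. No match was found in the window of Fcgr2b, nor in that of Fcer1g, and Syk had a match in 1 of its 2 windows. In all, 4 of the 6 genes had a match in any of their 8 windows, and 28.3% of all 32851 single windows had one. The first counts genes and the second windows, so these are unlike measures and are not compared. A match is a run of letters and shows no binding.

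Fcgr3 and Fcgr2b are near copies in part. Of all words of 50 bases in the Fcgr3 transcripts of GENCODE M21, 9.58% also occur in Fcgr2b transcripts, so reads there could be split between the genes by the authors' counting. An antisense gene, Gm38204, overlaps Fcgr2b, and the library kit is not known to keep strand, so its reads could not be told from those of Fcgr2b. No word of 50 bases in Fcer1g, Fcgr1, Fcgr4, Tyrobp, Syk or Sirpa occurs in the transcripts of another gene.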

How the data were processed

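Total RNA from liver of 9 mice, 3 per group by the labels, was isolated by the authors with a PicoPure kit, selected for polyadenylated RNA and prepared with TruSeq v2. The submitters' processing notes name mm10, STAR 2.6.1 and Partek 6, and the authors assigned reads to Gencode M3 genes by the Partek E/M method and normalized the counts to the upper quartile. The deposited signal is a least-squares mean per group of these normalized counts, with 3 significant digits, and whether it was averaged on a linear or log scale is not given in the sources used here. The other columns of the authors' deposited table, with p-values, false discovery rates, ratios and fold changes of their comparisons, were not used. Depth and the spread between mice are unknown, so no interval or test is given.

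Ratios of group means were taken with no pseudocount and called at 2-fold among genes with a mean over the 3 groups of at least 1. The members and the gene lists were chosen with earlier results of these data known. Named genes are the 8 members, up to 6 genes per pathway list past 2-fold in either of the first 2 comparisons, marker totals with example genes, and the 10 genes nearest in pattern. Trem2, Clec1b, Clec9a, Zap70, Blnk, Cd72, Prkcd, Gab2, Lyn and Ighg1 were named after their values were seen. So were the widely expressed relatives, the ligands, the marker genes outside the most abundant of each list and the chromosome 1 neighbors. Alternatives were fold limits of 1.5 and 3, pseudocounts of 0.1 and 1, no minimum or a minimum of 10, centring on the median, and protein-coding genes only.

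Gene ends in the authors' deposited table lie 1 base past those of GENCODE M21 for all 8 members, so GENCODE ends are printed. Merged exon lengths, transcripts and coding stretches came from GENCODE M21, and promoter windows from RefSeq. Motifs planned for protein sequences were searched in translated coding sequences instead, and no protein is printed. Some genes of the lists and of the chromosome 1 window are not reported here by name. The ratio step was tested on simulated data. Software was Python 3.11.15 with NumPy 2.4.6, pandas 2.3.3 and Matplotlib 3.10.9.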

Additional observations from a re-analysis of the deposited data

How the results depend on the processing

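Of the alternatives, only centring could change the direction of a ratio of the 8 genes, and it changed none. A pseudocount keeps the direction by construction, and fold limits and filters leave the ratios themselves as they are. Only the ratio of Fcgr1 in Scd2f/f;CC TAL over control liver crossed the 2-fold limit, to a log2 ratio of 0.97 with a pseudocount of 1. The 7 genes at least 2-fold higher in Scd2f/f TAL than in control liver also passed 3-fold. With a limit of 3-fold, 3 of the 7 passed in Scd2f/f;CC TAL over control liver, as did 11 genes of the pathway lists. With a limit of 1.5-fold, 2 members and 8 genes of the pathway lists passed as lower in Scd2f/f;CC TAL than in Scd2f/f TAL. Against control liver, that limit gave 1 gene of the lists as lower for Scd2f/f TAL and 3 for Scd2f/f;CC TAL. With a minimum mean of 10, only Fcgr2b and Sirpa were left, 1 of them was at least 2-fold higher in each comparison with control liver, and the median log2 ratio in Scd2f/f;CC TAL over control liver was 0.90. The lists then held 2 genes at least 2-fold higher in each comparison with control liver, and 0 lower in Scd2f/f;CC TAL than in Scd2f/f TAL. With no minimum, the lists held 48 genes at least 2-fold higher in Scd2f/f TAL than in control liver (26 with the minimum), 39 in Scd2f/f;CC TAL over control liver (22), and, for Scd2f/f;CC TAL over Scd2f/f TAL, 2 higher and 10 lower. With a pseudocount of 1, the lists held 13 genes at least 2-fold higher in Scd2f/f;CC TAL than in control liver. The counts with other limits and filters differ by construction, since they admit more or fewer genes. The share of all genes at least 2-fold higher in Scd2f/f TAL than in control liver, 6.40%, was 12.8% at 1.5-fold, 2.89% at 3-fold, 3.83% with a pseudocount of 1 and 2.6% with a minimum mean of 10. Centring moved log2 ratios by at most 0.04, and with protein-coding genes only the member counts were unchanged. No paired analysis was possible because the deposited columns are group means that carry no replicate number, and for the same reason no replicate could be left out.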
